A study of Mus musculus with 8 samples.

Results

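The 9 genes described here lie on mouse chromosome 14, some way along it from Stab1: Gm3002, Abhd6, 4930452B06Rik, Il3ra, Nkiras1, Fam25c, Grid1, Lrit1 and Lrit2. They were chosen by their read counts, which differed between Stab1 knockout and wild-type liver, so the genotype difference of each gene is a description of how it was chosen and is not tested again. The 9 genes are among 19348 genes in the deposited table, each stands on 1 row, and all 9 passed the filter on low counts that left 12338 genes for testing. RNA was sequenced from whole liver of mice aged 5 weeks, in 5 libraries from Stab1 knockout mice (KO) and 3 from wild-type mice (WT). No treatment is named for either group. Neither the strain of the mice nor the way the knockout allele was made is given in the sources used here, so a difference in strain between the groups and the loss of Stab1 cannot be told apart. Nor do the labels say whether the libraries of a group came from separate mice, so the spread between them may be technical in part.

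Genes on 1 chromosome are inherited together more often the closer they lie, and a gene's messenger RNA can differ between mice that carry different versions of the DNA around it. The 9 genes share a chromosome and not a pathway. Il3ra encodes the alpha chain of the interleukin-3 receptor, which pairs with a beta chain to bind the cytokine on blood cells. Nkiras1 encodes a small Ras-like protein that binds inhibitors of NF-kB, and Abhd6 encodes a serine hydrolase that cleaves monoacylglycerols, among them an endocannabinoid. Grid1 encodes a delta-type glutamate receptor known from synapses in the brain, and Lrit1 and Lrit2 encode membrane proteins with leucine-rich repeats, the first of them known from photoreceptors in mouse retina. 4930452B06Rik is the older symbol of Cfap20dc, a protein-coding gene, and Gm3002 is a transcribed pseudogene in RefSeq and a protein-coding gene in GENCODE M21. Fam25c is a short protein-coding gene, of 367 bases in the deposited table, whereas Gm3002 is given 5292 bases.

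Library totals ran from 4.85 to 10.5 M (mega) reads in KO and from 10.1 to 10.8 M reads in WT. Stab1 itself had 5 to 16 reads per KO library and 474 to 594 per WT library. KO library 1 was the shallowest and stood apart: it held 3 Xist reads against 4445 to 8222 in the other 7 libraries, and 773 reads of 4 Y-linked genes against 1 to 5, the pattern of a male among females. Each difference of the 9 genes is therefore also given without it. All 6 hepatocyte markers were tested and none was called, and their summed level was 68541 to 125519 CPM (reads scaled to a common library size, with TMM-adjusted library sizes) in KO and 141558 to 148570 CPM in WT. KO library 1 held the lowest sum, and the gap lay in Alb, the albumin gene, at 86938 ± 23538 CPM in KO (SD, n = 5) and 123190 ± 6418 CPM in WT (SD, n = 3). Without Alb the other 5 markers summed to 21539 to 24094 CPM in KO and 18207 to 23568 CPM in WT, which overlap. The part of the Alb gap in the results below was not tested.

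Promoter windows from RefSeq (GRCm38.p6, 250 bases before to 50 after the annotated start, written 5′ to 3′ on the gene's strand) were found for 6 of the 9 genes. Those of 4 genes are shown: Fam25c, the most abundant of the 9 per length in WT liver, the adjacent pair Lrit1 and Lrit2, which were close to absent in KO liver, and Il3ra, which was higher in KO liver. They stand at chr14:34355344-34355643 on the minus strand for Fam25c, and on the plus strand at chr14:37054580-37054879 for Lrit1, chr14:37067779-37068078 for Lrit2 and chr14:14346245-14346544 for Il3ra. Capitals mark matches on either strand to 5 short motifs. The TATA box was searched as TATAAA, the CCAAT box by the letters of its name, the GC box as GGGCGG, the nuclear receptor half-site as AGGTCA and the AP-1 site as TGANTCA.
Fam25c: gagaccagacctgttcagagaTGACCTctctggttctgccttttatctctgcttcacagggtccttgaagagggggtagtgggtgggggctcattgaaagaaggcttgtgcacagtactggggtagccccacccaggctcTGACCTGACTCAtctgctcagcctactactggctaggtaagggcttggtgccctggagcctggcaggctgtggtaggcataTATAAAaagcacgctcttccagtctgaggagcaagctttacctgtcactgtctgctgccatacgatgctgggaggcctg
Lrit1: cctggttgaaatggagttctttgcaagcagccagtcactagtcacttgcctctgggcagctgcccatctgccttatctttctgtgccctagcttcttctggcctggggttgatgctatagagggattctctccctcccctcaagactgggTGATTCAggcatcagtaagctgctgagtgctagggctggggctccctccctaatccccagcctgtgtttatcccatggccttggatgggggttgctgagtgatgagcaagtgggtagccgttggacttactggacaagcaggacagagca
Lrit2: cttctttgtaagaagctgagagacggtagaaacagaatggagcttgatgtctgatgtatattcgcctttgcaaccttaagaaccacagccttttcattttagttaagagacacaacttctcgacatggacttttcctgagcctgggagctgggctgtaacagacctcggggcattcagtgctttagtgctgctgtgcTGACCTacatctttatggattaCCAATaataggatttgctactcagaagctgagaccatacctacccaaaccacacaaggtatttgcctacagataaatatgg
Il3ra: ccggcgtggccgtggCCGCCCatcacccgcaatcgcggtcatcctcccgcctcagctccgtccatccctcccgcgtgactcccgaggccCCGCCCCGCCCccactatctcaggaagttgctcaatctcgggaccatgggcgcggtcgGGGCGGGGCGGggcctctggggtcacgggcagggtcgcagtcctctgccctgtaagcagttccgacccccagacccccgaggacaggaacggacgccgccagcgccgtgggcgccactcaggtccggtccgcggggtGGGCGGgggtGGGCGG
The Fam25c window holds a TATA box that begins 29 bases before the start, a nuclear receptor half-site at 229 bases before it, and another at 110 bases whose last base is shared with an AP-1 site. The Lrit1 window holds an AP-1 site at 100 bases before the start, and the Lrit2 window a half-site at 53 and a CCAAT box at 31 bases before it. The adjacent Lrit1 and Lrit2 thus share none of the 5 motifs in these windows. The Il3ra window holds 7 GC boxes, of which 2 pairs overlap by 1 base, and is 74.3% G and C, against a median of 52.7% over all 32851 windows. Over those windows, 13.6% hold a TATA box, 37.4% a CCAAT box, 35.7% a GC box, 16.3% a nuclear receptor half-site and 7.81% an AP-1 site. These are matches of letters and do not show that a factor binds.

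The 4 genes that follow Stab1 in gene order, Fam25c, Grid1, Lrit1 and Lrit2, were all lower in KO liver, and 3 of them were close to absent. The 5 that precede it were mixed: Gm3002, 4930452B06Rik, Il3ra and Nkiras1 were higher in KO liver and Abhd6 was lower. Of the 9 genes, 8 passed an adjusted p of 0.05 in the edgeR quasi-likelihood test, 4 of them higher and 4 lower in KO, which is how they were chosen. Over all tested genes 0.227% passed, 0.0729% higher and 0.154% lower. The values that fell just inside and just outside that threshold on this chromosome were 0.0451 for Nkiras1, 0.0705 for Abhd6 and 0.0717 for Chmp7, which is not among the 9. In all 9 genes the CPM of KO and WT libraries did not overlap, as was so for 6.65% of tested genes.

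**Figure D1:**
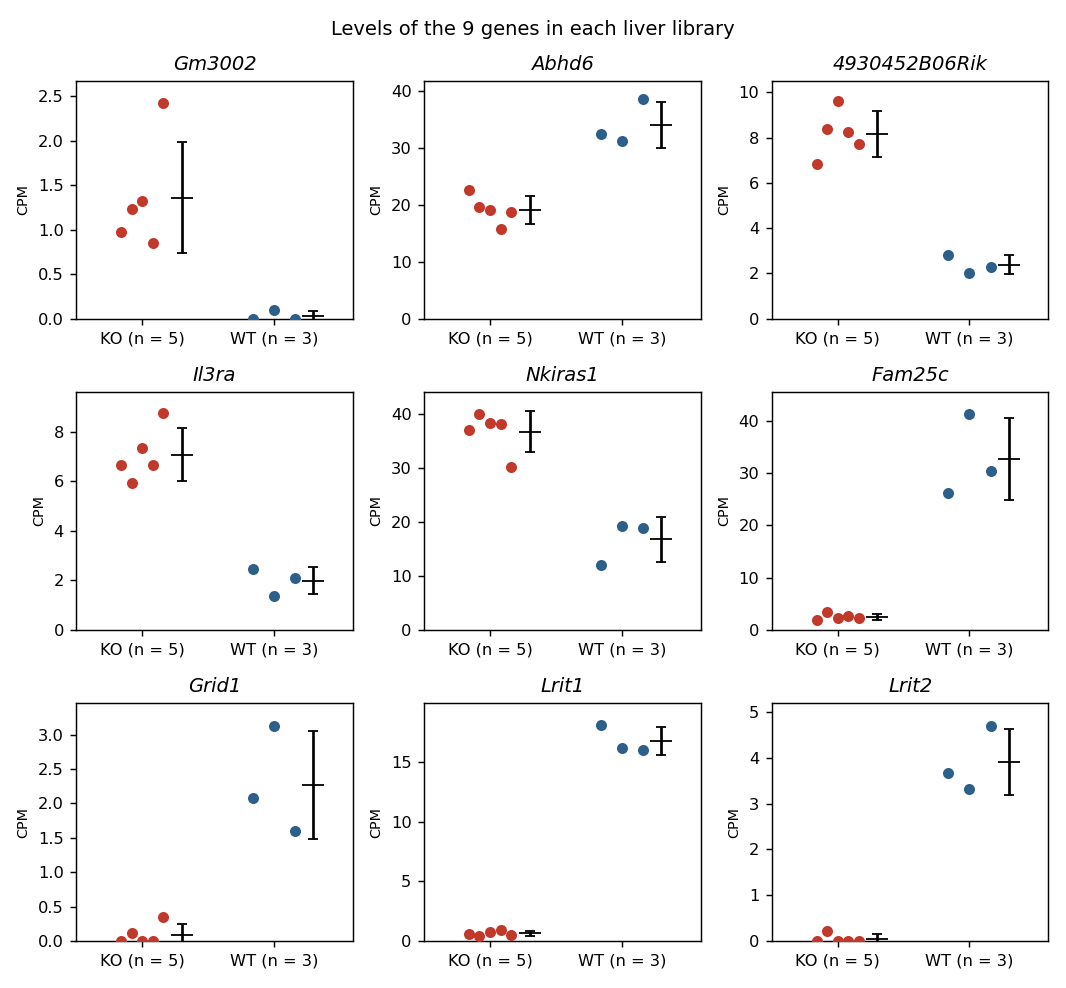
Level of each of the 9 genes in CPM (y axis, from 0) in KO libraries (red, n = 5) and WT libraries (blue, n = 3), with 1 point per library and the mean ± SD in black. No KO point overlaps the WT points in any panel, and Lrit1 averages 0.640 CPM in KO and 16.8 CPM in WT.

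Lrit1 (gene identifier 239037) had 3, 4, 8, 9 and 4 reads in KO libraries 1 to 5, against 192, 176 and 160 in WT libraries 1 to 3. Every KO library was thus far below the lowest WT library, and the WT libraries were close to each other. The mean level was 0.640 ± 0.214 CPM in KO (SD, n = 5) and 16.8 ± 1.16 CPM in WT (SD, n = 3), a log2 fold change of -4.66 (SE 0.23), or -4.65 without KO library 1. Lrit2 (239038), the next tested gene, had 2 reads in KO library 2 and 0 in the other 4 KO libraries, against 39, 36 and 47 in WT. Pooled over libraries, its KO level was 1.20% of the WT level, with an exact 95% counting interval of 0.144% to 4.44%. Both Lrit genes were read in every WT library and were at a few reads or none in KO, where 3 reads correspond to 0.587 CPM in library 1 and to 0.283 to 0.346 CPM in the others.

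Grid1 (14803) had 0, 1, 0, 0 and 3 reads in KO libraries 1 to 5, against 22, 34 and 16 in WT libraries 1 to 3. Per length it was the lowest of the 4 genes after Stab1 in WT liver (0.657 RPKM), and the highest KO library held fewer reads than any WT library. Its pooled KO level was 4.08% of the WT level (exact 95% counting interval 1.08% to 10.9%), and the fitted log2 fold change was -4.42 (SE 0.66). Fam25c (69134) had 10, 31, 23, 25 and 19 reads in KO, against 279, 449 and 303 in WT. Unlike the other 3 it was still read well above the detection floor in KO, at 2.48 ± 0.599 CPM (SD, n = 5), against 32.7 ± 7.78 CPM in WT (SD, n = 3). Its log2 fold change was -3.70 (SE 0.22). Without KO library 1 the differences were -4.27 for Grid1, -3.65 for Fam25c and -5.90 for Lrit2, against -6.02 for Lrit2 with all libraries.

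Il3ra (16188) had 34, 53, 78, 63 and 76 reads in KO libraries 1 to 5, against 26, 15 and 21 in WT libraries 1 to 3. KO library 1, the shallowest of the 8, still held more Il3ra reads than each WT library. Levels were 7.07 ± 1.08 CPM in KO (SD, n = 5) and 1.98 ± 0.547 CPM in WT (SD, n = 3), a log2 fold change of 1.83 (SE 0.25), or 1.85 without KO library 1. 4930452B06Rik (74430) had 35, 75, 102, 78 and 67 reads in KO and 30, 22 and 23 in WT. Its levels were 8.16 ± 1.01 CPM in KO and 2.39 ± 0.409 CPM in WT (log2 fold change 1.77, SE 0.21, and 1.82 without KO library 1). The profiles of these genes over the 8 libraries, each centred on its own mean log2 CPM, differed by 0.18 on average, the smallest value among the 36 pairs of the 9 genes.

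Nkiras1 (69721) had 189, 358, 406, 360 and 262 reads in KO libraries 1 to 5, against 127, 209 and 189 in WT libraries 1 to 3. KO libraries 1 to 4 lay within 37.0 to 39.9 CPM and KO library 5 at 30.2 CPM, all above the highest WT library at 19.3 CPM. Means were 36.7 ± 3.76 CPM in KO (SD, n = 5) and 16.7 ± 4.10 CPM in WT (SD, n = 3), a log2 fold change of 1.13 (SE 0.18), and 1.13 without KO library 1. Gm3002 (100040852) had 5, 11, 14, 8 and 21 reads in KO and 0, 1 and 0 in WT. It was the only one of the 9 genes with no read in most WT libraries, and its pooled KO level was 43.3 times the WT level, with an exact 95% counting interval of 7.48 to 1740 that rests on a single WT read. The fitted log2 fold change was 4.94 (SE 0.78), or 5.03 without KO library 1.

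Abhd6 (66082), the only lower gene before Stab1, had 116, 176, 203, 149 and 162 reads in KO libraries 1 to 5, against 344, 339 and 386 in WT libraries 1 to 3. Its difference was the smallest of the 9. Levels were 19.2 ± 2.47 CPM in KO (SD, n = 5) and 34.1 ± 3.98 CPM in WT (SD, n = 3), a log2 fold change of -0.83 (SE 0.15), or -0.90 without KO library 1. On the linear scale the KO level was 0.561 times the WT level, and every KO library held at least 116 Abhd6 reads.

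Compared per length, with the deposited RPKM (reads per gene length and library total), the order of the genes differed between the groups. In KO liver Abhd6 (9.54 ± 1.47 RPKM, SD, n = 5), Nkiras1 (8.01 ± 0.915), Fam25c (6.75 ± 1.48) and Il3ra (5.08 ± 0.726) came first, and the ranges of neighbours in this order overlapped. 4930452B06Rik followed at 2.97 ± 0.353 RPKM, apart from the genes above and below it. Gm3002 and Lrit1 (0.255 and 0.148 RPKM) overlapped in range, as did Grid1 and Lrit2 (0.0258 and 0.0156 RPKM). In WT liver Fam25c stood alone at 88.7 ± 22.0 RPKM (SD, n = 3), ahead of Abhd6 at 16.8 ± 1.80 RPKM. Lrit1 (3.85 ± 0.267) and Nkiras1 (3.63 ± 0.897) came next and overlapped. Il3ra (1.41 ± 0.382) and Lrit2 (1.39 ± 0.244) overlapped too, as did 4930452B06Rik (0.863 ± 0.144) and Grid1 (0.657 ± 0.234), and Gm3002 was last at 0.00584 RPKM.

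**Figure D2:**
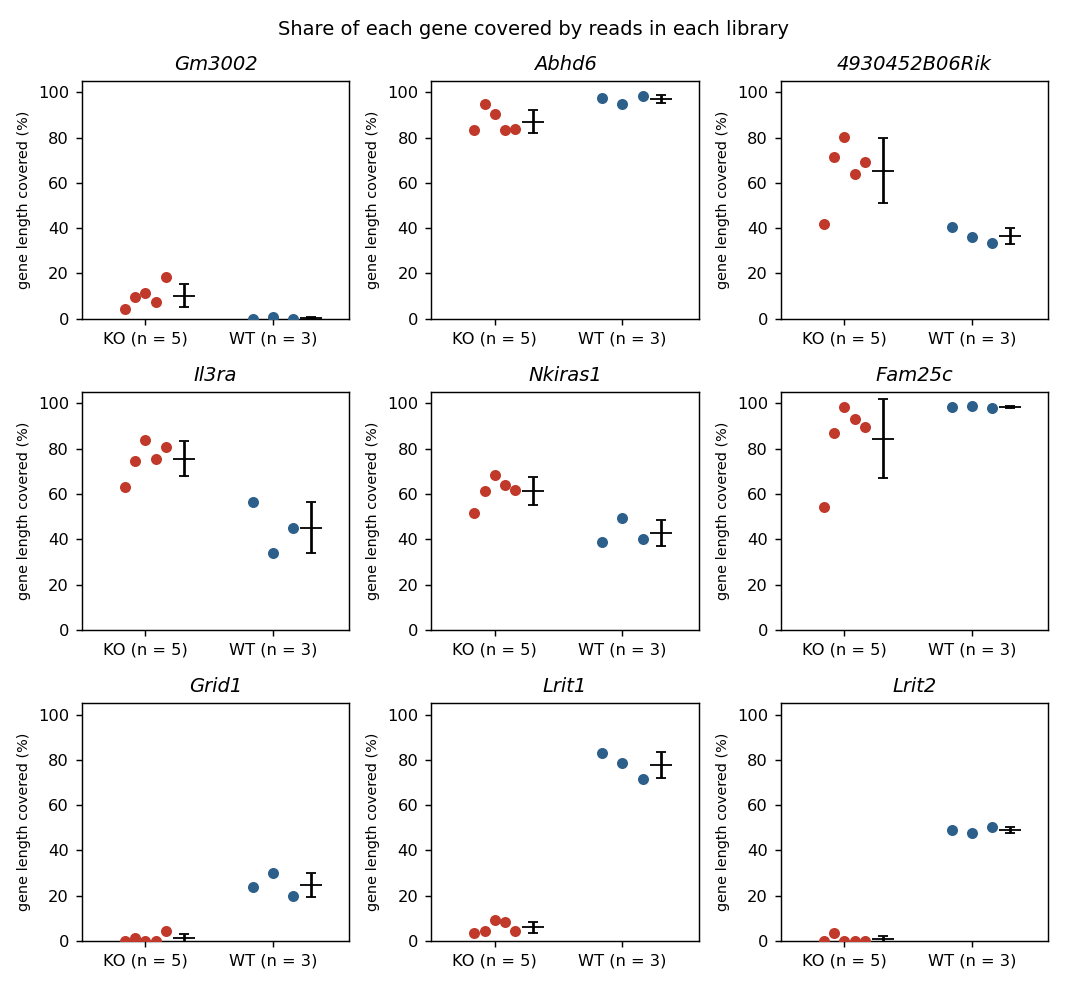
Share of the gene length under reads, in percent (y axis, from 0), in KO libraries (red, n = 5) and WT libraries (blue, n = 3), with 1 point per library and the mean ± SD in black. Lrit1 was covered over 3.39% to 9.04% in KO and 71.4% to 83.1% in WT, whereas Fam25c was covered over most of its length in both groups.

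The deposited coverage, the percent of a gene's length under reads, moves with the number of reads and belongs to the same contrast, so it too is given as a description. In KO liver the Lrit1 reads covered 3.39% to 9.04% of the gene, and in WT liver 71.4% to 83.1%. Lrit2 was covered over 0% in 4 KO libraries and 3.52% in KO library 2, against 47.5% to 50.2% in WT, and Grid1 over 0% to 4.27% in KO against 19.9% to 30.2% in WT. Fam25c was covered over 54.2% to 98.4% in KO and 97.8% to 98.9% in WT. Among the genes higher in KO, Il3ra was covered over 63.3% to 83.9% in KO and 34.1% to 56.4% in WT. For 4930452B06Rik the values were 42.0% to 80.2% in KO and 33.4% to 40.4% in WT, and for Nkiras1 51.6% to 68.2% in KO and 38.8% to 49.3% in WT. Gm3002 reached 4.35% to 18.2% in KO and at most 0.93% in WT, and Abhd6 was covered over 83.3% to 94.9% in KO and 94.9% to 98.3% in WT.

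**Figure D3:**
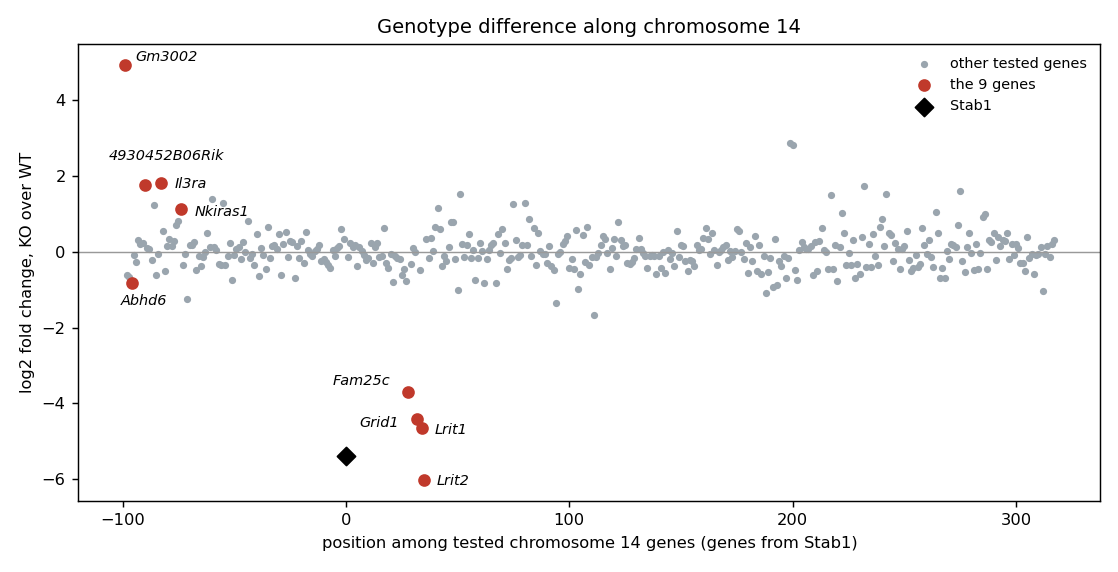
Log2 fold change of KO over WT (y axis) for the 417 tested genes of chromosome 14 in gene order, counted in tested genes from Stab1 (x axis, 0 at Stab1), with the 9 genes in red, Stab1 as a black diamond and all others in grey. The 9 genes lie 99 to 74 genes before Stab1 and 28 to 35 genes after it. Of the 125 other genes from Gm3002 to Lrit2, 0 were called by edgeR. This count was largely set by leaving out Stab1 and the 9, which were picked for their difference.

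In the order of the 417 tested genes of chromosome 14, the 9 genes formed 2 groups. Gm3002, Abhd6, 4930452B06Rik, Il3ra and Nkiras1 lay 99, 96, 90, 83 and 74 tested genes before Stab1, at the start of the 99 tested genes on that side. Fam25c, Grid1, Lrit1 and Lrit2 lay 28, 32, 34 and 35 tested genes after it, of 317 on that side. Lrit1 and Lrit2 were immediate neighbours, and no more than 8 tested genes separated neighbours within either group, while 101, with Stab1 among them, lay between Nkiras1 and Fam25c.

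The genes beside the 9 were compared in the same fit. The 9 were picked from this chromosome for their genotype difference and are left out of the counts below, as is Stab1. A number called at or near 0 was thus largely set by that choice. Of the 40 genes within 5 tested genes of any of the 9, 0 were called, against 0.227% of all tested genes. Their median log2 fold change was 0.01, with a range of -1.23 to 1.24, and the median over all tested genes was -0.01. An unadjusted p below 0.05 was found for 16 of the 40 (40% against 13.6% of all tested genes), and the groups did not overlap in 8 (20% against 6.65%). Of the 26 before Stab1, 15 had a positive log2 fold change (median 0.13), and of the 14 after it 5 did (median -0.17). DESeq2, which called 0.884% of all genes, called 2 of the 40, Atxn7 (log2 fold change -0.62, adjusted p = 0.0134) and Nid2 (-1.23, adjusted p = 0.0239), both lower in KO. Without WT library 3, where 0.745% of all genes were called, edgeR called Nid2, which encodes the basement membrane protein nidogen-2 (-1.53, adjusted p = 0.0154, against 0.231 with all libraries), and Nr1d2, a nuclear receptor of the circadian clock (2.42, adjusted p = 0.0326). With all libraries the Nr1d2 value was 0.71 (SE 0.65, adjusted p = 0.614), with 332 to 1428 reads in KO libraries, against 291 and 176 in WT libraries 1 and 2 and 1710 in WT library 3. These genes were named after their calls were seen.

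The tested genes immediately on each side were taken for the Lrit pair, Grid1, Fam25c and Il3ra, a choice made after their values were seen. Ccser2 and Ghitm flank the Lrit1 and Lrit2 pair. Ghitm, which encodes an inner mitochondrial membrane protein, was at 383 ± 46.2 CPM in KO (SD, n = 5) and 301 ± 6.66 CPM in WT (SD, n = 3), with a log2 fold change of 0.35 (adjusted p = 0.353). Ccser2, which also follows Grid1, was at 32.7 ± 5.48 CPM in KO and 45.9 ± 9.13 CPM in WT (-0.49, adjusted p = 0.333). Wapal, before Grid1, encodes a factor that releases cohesin from chromosomes and was at 68.2 ± 11.1 CPM in KO and 68.2 ± 16.2 CPM in WT. Beside Fam25c, Gm3219 was at 9.18 ± 1.75 CPM in KO and 15.6 ± 4.85 CPM in WT (-0.76, adjusted p = 0.307), and Mmrn2, an endothelial matrix protein gene, at 9.15 ± 1.42 CPM in KO and 11.4 ± 2.41 CPM in WT (-0.32, adjusted p = 0.448). Beside Il3ra, the proteasome subunit gene Psmd6 was at 62.6 ± 10.2 CPM in KO and 64.6 ± 3.42 CPM in WT (-0.05, adjusted p = 0.894), and Slc4a7, a bicarbonate transporter gene, at 16.9 ± 5.50 CPM in KO and 11.6 ± 0.880 CPM in WT (0.55, adjusted p = 0.366). None of these 7 genes was called, which was largely set by the choice of the 9. Over the whole stretch between Gm3002 and Lrit2, 0 of 125 other tested genes were called, with a median log2 fold change of -0.01. That number called, too, was largely set by leaving out the 9 and Stab1. An unadjusted p below 0.05 was found for 23 of the 125 (18.4% against 13.6% of all tested genes). DESeq2 made 2 calls there, the same Atxn7 and Nid2.

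Some of the genes share sequence with other places, and the deposited counts are of uniquely mapped reads. In the GENCODE M21 transcripts, Gm3002 aligned at 95% identity or more over 100 bases or more with 45 other genes. Of these, 8 were found by name in the deposited table, with 12 reads in all KO libraries together and 1 in all WT libraries, and none had enough reads to be tested. The level of Gm3002 is therefore uncertain. Nkiras1 had such matches with 48 genes, over 723 bases at the longest, so its level too is uncertain. Among the 48 are Ube2e1 and Rpl15, whose exons overlap those of Nkiras1 as given below. Abhd6 had 1, to Gm1833 over 623 bases at the longest, so its level is uncertain to that extent. Gm1833 was not found by name in the deposited table. Grid1 had 1, to Gm53 over 101 bases, and Il3ra, 4930452B06Rik, Fam25c, Lrit1 and Lrit2 had 0. Il3ra shares 46 of its 2967 annotated exon bases with the antisense gene Gm48860, and Grid1 shares 91 of its 5962 with Gm27617 on the same strand. Nkiras1 shares 718 of its 5491 annotated exon bases with Ube2e1 and 105 with Rpl15, both on the opposite strand. Strandedness of the libraries is not given in the sources used here, so reads in the shared stretches cannot be told apart. Ube2e1 was at 14.1 ± 0.944 CPM in KO and 18.0 ± 2.52 CPM in WT (log2 fold change -0.35, adjusted p = 0.346), and Rpl15, a ribosomal protein gene, at 403 ± 135 CPM in KO and 231 ± 52.2 CPM in WT (0.81, adjusted p = 0.333).

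Genes that work with the encoded proteins were taken from lists. Of the 42 tested genes of 5 partner lists, 0 were called by edgeR or by DESeq2, and 6 had an unadjusted p below 0.05 (14.3% against 13.6% of all tested genes). Their median log2 fold change was -0.13, or -0.19 without KO library 1, and that of all tested genes -0.01. In the interleukin-3 receptor list, 9 of 13 genes were tested, with 0 higher, 0 lower and a median of -0.12. Csf2rb, the shared beta chain, was at 6.93 CPM in KO and 6.83 CPM in WT (log2 fold change 0.01, SE 0.20, adjusted p = 0.989). The smallest unadjusted p-values belonged to Stat5a, a signal transducer of the receptor (-0.79, SE 0.32, adjusted p = 0.341), Lyn (0.19) and Ptpn6 (-0.22).

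For Nkiras1, 17 of 18 genes of NF-kB control were tested, none was called and the median was -0.18. Nkiras2, its paralogue, was at 7.16 CPM in KO and 8.19 CPM in WT (log2 fold change -0.21, SE 0.25, adjusted p = 0.701). Birc3 (-0.35), Tnfaip3 (-0.63) and Ikbkb (-0.37) had the smallest p-values, with adjusted p = 0.350, 0.351 and 0.356. For Abhd6, 10 of 12 endocannabinoid genes were tested, none was called and the median was -0.10. Mgll, the monoacylglycerol lipase that shares its substrate, was at 155 CPM in KO and 220 CPM in WT (-0.51, SE 0.18, adjusted p = 0.333), Abhd16a had a log2 fold change of 0.37 and Cnr2 of -0.29.

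Few genes known with Grid1 and the Lrit genes from brain and retina had enough reads to test. Of 25 ionotropic glutamate receptor and cerebellin genes, 23 were found in the table, 17 had any read and 5 were tested, with 0 called and a median of 0.01. Nrxn2 had a log2 fold change of -0.43, Grik5 of -0.26 and Gria3 of 0.29. Of 16 retina genes, 15 were in the table and Gnat1, a transducin gene, was the only one tested (-0.09, adjusted p = 0.877). Rgr, a retinal opsin gene that belongs to the same list, had 0 reads in KO and 9 in WT, too few to test.

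Marker levels of cell types that could carry these genes are given beside them. As these are bulk samples, fewer cells of a type and less RNA per cell cannot be told apart. Of 8 mast cell and basophil markers, 2 (Mcpt4 and Tpsb2) had 0 reads everywhere and Kit alone was tested and not called. Their summed level, 5.28 to 8.43 CPM in KO and 6.91 to 9.63 CPM in WT, was mostly Kit (6.62 ± 0.922 CPM in KO and 8.28 ± 1.41 CPM in WT). The other 7 had 15 reads in all KO libraries together and 1 in all WT libraries, with sums of 0 to 0.577 CPM in KO and 0 to 0.1 CPM in WT. Cpa3, a mast cell carboxypeptidase gene, had 6 of those KO reads and the WT read. The part of these cells in the Il3ra difference was not tested. Plasmacytoid dendritic cell markers summed to 199 to 242 CPM in KO and 180 to 226 CPM in WT, with 0 of 3 tested called. This sum was mostly Bst2 (195 ± 17.4 CPM in KO and 181 ± 23.8 CPM in WT). Siglech had 16 reads in all KO libraries together and 8 in WT, and Ccr9 had 14 and 12. Kupffer cell markers summed to 361 to 558 CPM in KO and 302 to 417 CPM in WT, with 0 of 6 called. Neuron and glia markers summed to 21.1 to 29.1 CPM in KO and 14.8 to 24.0 CPM in WT, with 0 of 2 tested called. Most of that sum was Syt1 (23.7 CPM in KO and 17.1 CPM in WT). The 9 retina markers summed to 9.59 to 20.9 CPM in KO and 13.2 to 15.5 CPM in WT, with Prph2 at 0 reads. Gnat1 made up most of the retina sum (12.4 CPM in KO and 13.1 CPM in WT). Sinusoidal endothelial markers, from a liver cell type known to carry Stab1, summed to 222 to 263 CPM in KO and 241 to 293 CPM in WT, with 0 of 6 called.

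Among tested genes outside the 9, those most like each of the 9 in profile were sought. Likeness was the mean absolute difference of log2 CPM over the 8 libraries, after centring each gene on its mean. This likeness is dominated by the genotype difference and is a description. For Lrit1 the nearest were Rpl26 (0.26), Prom2 (0.42) and Stab1 (0.43), against a median of 2.03 over the tested genes outside the 9. For Lrit2 they were Camk2b (0.34), Rpl26 (0.39) and Prom2 (0.51). Fam25c was nearest to Camk2b (0.53), Rpl26 (0.54) and 2610507I01Rik (0.58), and Grid1 to 2610507I01Rik (0.55), Cwc22 (0.59) and Ugt1a5 (0.60). Among the higher genes, Il3ra was nearest to Serpinb6b (0.30), Syne4 (0.31) and Gm15772 (0.31), and 4930452B06Rik to Gm15772 (0.23), Sap30 (0.31) and Chmp7 (0.32). Nkiras1 was nearest to Gm15772 (0.18), Comtd1 (0.19) and Cblc (0.20), Gm3002 to Ccr3 (0.52), Srrm4os (0.55) and Gal3st1 (0.56), and Abhd6 to Atf6 (0.11), Nrp2 (0.11) and Rasip1 (0.13). Apart from Stab1, only Chmp7 and Comtd1 of these genes outside the 9 lie on chromosome 14. Some of the 9 were nearer to each other than to any of these genes. Fam25c differed from Lrit2 by 0.32 and from Grid1 by 0.35, and Il3ra from 4930452B06Rik by 0.18. For Lrit1, Nkiras1 and Abhd6 no other of the 9 was nearer than the first gene named.

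**Figure D4:**
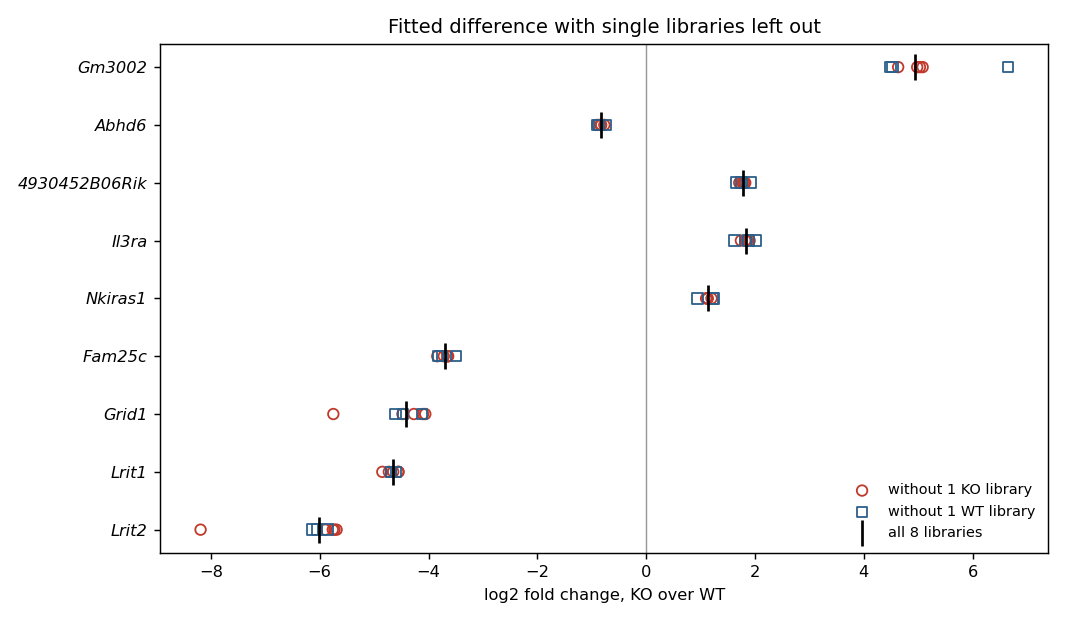
Fitted log2 fold change of KO over WT (x axis) for each of the 9 genes (rows) with all 8 libraries (black bar), without 1 KO library (red circles) and without 1 WT library (blue squares). No gene crosses 0, and the widest spread, from -8.19 to -5.69, belongs to Lrit2, which had only 2 KO reads.

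Leaving out any single library kept the sign of the 9 differences wherever a gene could be tested; Gm3002 fell to the filter without KO library 3. The log2 fold change ran from -4.85 to -4.55 for Lrit1, from -3.84 to -3.50 for Fam25c, from 1.62 to 2.02 for Il3ra, from 1.66 to 1.92 for 4930452B06Rik, from 0.94 to 1.24 for Nkiras1 and from -0.90 to -0.74 for Abhd6. The genes with almost no reads in 1 group moved most, from -8.19 to -5.69 for Lrit2 (lowest without KO library 2, which held both of its KO reads), from -5.75 to -4.06 for Grid1 (lowest without KO library 5, which held 3 of its 4 KO reads) and from 4.49 to 6.65 for Gm3002 (highest without WT library 2, which held its single WT read). The fits without 1 library reuse the contrast that chose the 9. Passing the threshold again thus describes dependence on single libraries and is no further test. Over all tested genes the number called was 28 with all libraries and ran from 13 to 114 in these fits. Lrit1, Lrit2 and Fam25c passed the threshold in all 8 of these fits, and Il3ra and 4930452B06Rik in 7, failing without WT library 2 (adjusted p = 0.0821 and 0.0629). Grid1 passed in 3, Nkiras1 in 2, Gm3002 in 1 and Abhd6 in 1, the fit without KO library 1, in which 0.928% of all genes were called.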

How the data were processed

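Messenger RNA was measured by sequencing of liver from 5-week-old mice, in 5 Stab1 knockout and 3 wild-type libraries, grouped and numbered by the sample titles. RNA purified on a column kit was turned into Illumina libraries at BGI, per the labels' protocols. Not given in the sources used here are aligner, counter, genome build, annotation and strandedness. A gene table of 19464 rows was deposited. Its columns, per the file headers, are uniquely mapped read counts, the percent of gene length covered and RPKM, for each library. The deposited RPKM equalled reads divided by gene length and column total, and was used only to compare levels between genes. A dash was read as 0. Reads were summed for 113 identifiers that stand on 229 rows.

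The members and lists were chosen with earlier results of these data known. The deposited counts were tested with edgeR 4.0.16 under R 4.3.3: filterByExpr at its defaults, TMM scaling, and a quasi-likelihood F test of KO against WT without covariates, with Benjamini-Hochberg adjustment over 12338 genes and calls at an adjusted p below 0.05. SEs were derived from the F statistic, and log2 CPM used a prior count of 2. The fit was tested on simulated counts. Counting intervals are exact, at 95%, and with the floor of 3 reads cover counting error only. DESeq2 1.42.0, RLE size factors, no filter, the replicate number as a block and leaving out each library were alternatives. Gene order and older symbols came from the RefSeq table of GRCm38.p6, in which 99.7% of identifiers were found, and its coordinates of genes are not printed because the build of the deposited table is not known. Near-identical transcripts were sought with blastn 2.17.0 in GENCODE M21.

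Genes named are the 9, Stab1 and, for each of the 9, the 3 genes outside them most alike in profile. Also named are called genes beside the 9 or in the lists, and up to 3 genes with the smallest p in each list. Genes named otherwise, such as immediate neighbours, paralogues and overlapping genes, were chosen after their values were seen. Some genes of the lists and neighbourhoods are not reported here.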

Additional observations from a re-analysis of the deposited data

Results flagged for a closer look

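Among the 5 KO libraries, 3 values of the 9 genes stood apart from the others by a Dixon test of the gap to the nearest library, which flags about 1 in 20 groups by chance. Fam25c reads covered 54.2% of the gene in KO library 1, the shallowest, and at least 86.9% in the other KO libraries. Lrit2 was at 0.223 CPM in KO library 2, with 3.52% of the gene covered, from 2 reads, and it had 0 reads in the other KO libraries. With 4 libraries at 0 any read in the fifth is flagged, and both Lrit2 values are the same 2 reads, so the chance rate does not apply to them. In all, 18 groups were tested in this way.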

How the results depend on the processing

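The number of genes called over all tested genes was 28, and it ran from 13 to 114 with single libraries left out: 114 without KO library 1, 93 without WT library 3, 15 without WT library 1 and 13 without WT library 2. It was 130 with DESeq2 and 8 with the replicate number as a block, and the cause of these shifts was not tested. Of the 40 genes beside the 9, and of the 125 in the stretch that holds them, the number called was 0, with 0 to 2 when a single library was left out and 2 with DESeq2. Both counts leave out the 9 and Stab1, so low numbers were largely set by the choice of the 9. No gene of the partner lists was called under any of the 12 alternatives. Deviations of same-numbered KO and WT libraries had correlations over genes of 0.124, -0.148 and -0.15, and KO library 1 correlated more with WT library 2 (0.31), so the numbers are not taken as a pairing; in the block fit, where KO libraries 4 and 5 have no partner, Fam25c and Lrit1 kept their calls and the others of the 9 lost theirs or stayed uncalled. Gm3002 could not be fitted without KO library 3, where it fell to the filter. Over 107 combinations of gene and alternative, 80 stayed on the same side of the threshold, 25 lost the call, 2 gained it (both Abhd6) and 0 changed sign. All of these fits reuse the contrast that chose the 9, so the counts describe dependence on processing and are no support for the differences. Depth limits Lrit2 and Grid1 (2 and 4 reads over all KO libraries) and Gm3002 (1 read over all WT libraries).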
